A study of Mus musculus with 3 samples.

Results

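The SLAM family (signalling lymphocytic activation molecule family) receptors and their adaptor SAP, encoded by Sh2d1a, were described in mouse regulatory T cells. The 8 genes were chosen by name and not by their level: the receptor genes Slamf1, Slamf6, Slamf7, Ly9, Cd48, Cd84 and Cd244, and Sh2d1a. They are 8 of the 50600 genes counted, and all 8 were found by Ensembl identifier. Cd244 is named Cd244a in the GENCODE M21 annotation. The samples are 3 RNA libraries, numbered biological replicates 2, 3 and 4, of primary regulatory T cells of strain C57BL/6NJ, and the file headers add that the cells had been activated for 16 hours. The 3 libraries form 1 group with no second condition, carry 1 donor identifier and have no recorded sex or age, and the labels do not say whether they came from separate animals or from pools. SDs and tests therefore measure only the spread between these libraries, and how much of it is technical and how much lies between animals cannot be told apart.

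SLAM receptors are immunoglobulin superfamily proteins of blood cells. Most of them bind a copy of themselves on a neighbouring cell, while CD48, which is held in the membrane by a lipid anchor, binds CD244 and, in mice, CD2. The tails of the other receptors carry switch motifs built around a tyrosine, and once phosphorylated these recruit SAP or its relative EAT-2. SAP is a single SH2 domain that links the receptors to the kinase FYN and competes with inhibitory phosphatases, and it is needed for natural killer T cell development and for help given to B cells by follicular helper T cells.

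The switch motifs are shown because motifs of this kind recruit SAP or EAT-2. Binding at the sites listed was not tested. The motif is a threonine, any residue, a tyrosine, any 2 residues and then a valine or isoleucine. It was searched in the coding DNA of the GENCODE M21 transcripts (GRCm38, the build also called mm10), in the isoform with the longest coding sequence of each gene. The tail was taken as the codons after the window of 19 codons with the highest mean hydropathy. The 18 bases of each site are given 5′ to 3′ on the coding strand, with the tyrosine codon in capitals, for the 5 receptors with a tail that were detected.
Ly9 site 1 (chr1:171593912-171593929, minus strand): actccaTATgataaagtg
Ly9 site 2 (chr1:171593438-171593455, minus strand): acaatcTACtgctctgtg
Slamf1 site 1 (chr1:171792339-171792356, plus strand): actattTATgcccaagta
Slamf1 site 2 (chr1:171799588-171799605, plus strand): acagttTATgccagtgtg
Slamf6 site 1 (chr1:171939437-171939454, plus strand): actgtgTATgcacaagtc
Slamf6 site 2 (chr1:171941664-171941681, plus strand): acaattTACtccatagtt
Cd84 site 1 (chr1:171884605-171884622, plus strand): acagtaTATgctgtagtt
Cd84 site 2 (chr1:171885601-171885618, plus strand): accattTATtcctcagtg
Slamf7 site 1 (chr1:171636327-171636344, minus strand): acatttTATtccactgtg

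Ly9, Slamf1, Slamf6 and Cd84 thus had 2 motifs in the tail and Slamf7 had 1. Cd244 had 4, with tyrosines at codons 266, 325, 344 and 369 of 397. Cd48 had none: only 2 codons followed its hydrophobic stretch, and its single match lay ahead of that stretch. Isoforms of the same gene differed in this respect. Of the 3 Slamf6 isoforms with a complete coding sequence, Slamf6-201 and Slamf6-207 held both sites and Slamf6-204 only the first. Slamf7-202 and Slamf7-205 lacked the Slamf7 site, and Cd84-203 (140 codons) held no motif at all. The deposited counts are per gene, so they do not tell these isoforms apart.

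Before the levels, the libraries themselves need a description. They held 41222058, 47665060 and 99097524 assigned fragments in replicates 2, 3 and 4. No pair of libraries agreed within sampling noise. The mean chi-square statistic per gene was 17.2 to 26.6, where sampling alone gives a mean of 1. The median gene had a lower value, 4.30 to 5.76. Of the markers of the labelled cell type, all 7 for regulatory T cells and all 7 for T cells were at 1 TPM or more in each library (TPM is the count per base of exon, scaled to the same total in each library), with Foxp3, the lineage factor, at 76.4, 82.3 and 83.9 TPM. Ikzf2 was the lowest of the regulatory T cell markers, at 3.94, 2.66 and 3.06 TPM in replicates 2, 3 and 4. The libraries differed from one another in sex-linked genes, with the X-inactivation RNA Xist at 126, 0.331 and 36.1 TPM and the Y-linked Ddx3y at 0.126, 39.3 and 28.4 TPM in replicates 2, 3 and 4. Replicate 2 was thus high in Xist and replicate 3 in Ddx3y, and replicate 4 held both, so the libraries were not alike in the sex of their cells.

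In these bulk libraries fewer cells of a type and less RNA per cell cannot be told apart. The receptor genes spanned from more than 100 TPM to near absence. Cd48 and Ly9 were the most abundant receptor genes, Slamf1, Slamf6 and Cd84 were at intermediate level, Slamf7 was low and Cd244 was barely counted. Sh2d1a lay between Ly9 and Slamf1. A gene was called detected where all 3 libraries had 1 TPM or more, which held for 7 of the 8 genes and not for Cd244; of all 21764 protein-coding genes 45.6% reached it. At 10 TPM the count was 6 of 8, beside 34.8% of protein-coding genes, and at 100 TPM it was 1 of 8, beside 8.80%.

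**Figure D1:**
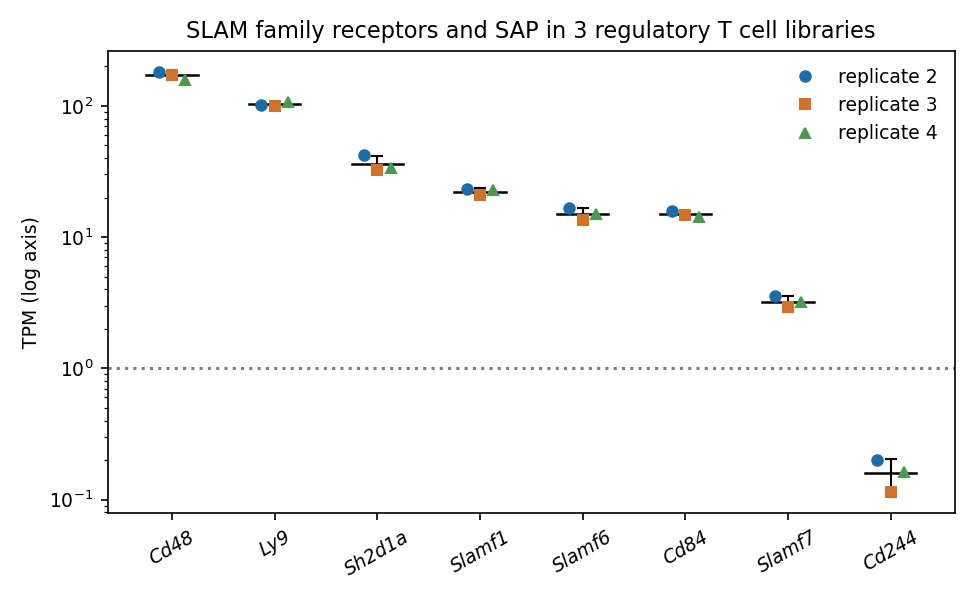
TPM (log axis) of the 7 receptor genes and Sh2d1a in the 3 libraries, ordered by mean; each symbol is 1 library, horizontal lines are means, error bars are SD (n = 3) and the dotted line is 1 TPM. Cd48 at 158 to 180 TPM is highest and Cd244, at 0.114 to 0.202 TPM, is the only gene below the dotted line.

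Cd48 (ENSMUSG00000015355.13; chromosome 1, 171682009 to 171705258, plus strand, mm10) encodes the lipid-anchored ligand of CD244 and CD2. It was counted with 2619, 2945 and 5483 fragments, or 180, 173 and 158 TPM, in replicates 2, 3 and 4 (170 ± 11.5 TPM, SD, n = 3). With merged exon length it ranked 1136 of 21764 protein-coding genes by mean TPM and supplied 51.8 ± 2.25% of the summed TPM of the 7 receptors.

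Ly9 (ENSMUSG00000004707.14; chromosome 1, 171588624 to 171607410, minus strand) encodes CD229, a self-binding receptor whose tail of 180 codons was the longest of the 6. Its levels were 101, 99.7 and 108 TPM from 4095, 4726 and 10430 fragments (103 ± 4.32 TPM), or 31.4 ± 2.03% of receptor TPM. It was the only member that was highest in replicate 4. In every library Ly9 lay below Cd48, whose TPM was 1.78, 1.73 and 1.46 times as high.

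Slamf1 (ENSMUSG00000015316.11; chromosome 1, 171767127 to 171801184, plus strand) encodes CD150, a self-binding receptor also used to mark blood stem cells. It stood at 23.2, 20.8 and 22.7 TPM (22.2 ± 1.26 TPM). Slamf6 (ENSMUSG00000015314.10; chromosome 1, 171917515 to 171953170, plus strand) encodes Ly108, which signals through SAP in T cells and natural killer T cells. It had 16.6, 13.6 and 14.9 TPM (15.0 ± 1.52 TPM). Cd84 (ENSMUSG00000038147.13; chromosome 1, 171839697 to 171890718, plus strand), the gene of another self-binding receptor, had 15.8, 14.8 and 14.3 TPM (15.0 ± 0.767 TPM). The ranges of Slamf6 and Cd84 overlapped, and Slamf6 was the higher in 2 of 3 libraries.

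Slamf7 (ENSMUSG00000038179.13; chromosome 1, 171632403 to 171653035, minus strand) encodes CRACC, a receptor known from natural killer cells and plasma cells that works with EAT-2. It was detected at a low level, 3.56, 2.91 and 3.20 TPM from 199, 191 and 428 fragments (3.22 ± 0.326 TPM). Cd244 (ENSMUSG00000004709.14; chromosome 1, 171559193 to 171609746, plus strand) encodes 2B4, a receptor of natural killer cells and cytotoxic T cells. It had 12, 8 and 23 fragments, or 0.202, 0.114 and 0.161 TPM (0.159 ± 0.0436 TPM), where 3 fragments would make 0.0504 TPM in the shallowest case. Cd244 therefore rested on 43 fragments in all, against 19251 for Ly9, whose gene overlaps it on the opposite strand without sharing an exonic base.

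Sh2d1a (ENSMUSG00000005696.11; chromosome X, 42502453 to 42529330, plus strand) was the member with the widest relative spread among those detected. It had 2822, 2546 and 5415 fragments, or 42.0, 32.3 and 33.7 TPM in replicates 2, 3 and 4 (36.0 ± 5.27 TPM). Replicate 2 was the high library, and the other two lay close together. On the opposite strand Tenm1 shares 1465 of its exonic bases, and Tenm1 had no fragment. The coefficient of variation of 14.6% exceeded that of 95.6% of the 7743 protein-coding genes with a mean of 10 TPM or more, whose median was 6.18%.

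Along the order of levels, 6 of the 7 neighbouring pairs did not overlap over the 3 libraries, and Slamf6 and Cd84 did. The pairs were formed by sorting the genes on these same mean levels, so the direction of each mean difference was fixed in advance. How often other gene pairs overlap was not computed. Cd48 was 1.66 ± 0.171 times Ly9 in TPM, Ly9 was 2.90 ± 0.427 times Sh2d1a and Sh2d1a was 1.61 ± 0.173 times Slamf1 (mean of the ratio within each library ± SD, n = 3). Slamf1 was 1.49 ± 0.0760 times Slamf6, and Cd84 was 4.66 ± 0.358 times Slamf7. Slamf7 was 17.7, 25.4 and 19.8 times Cd244 in replicates 2, 3 and 4, with only 8 to 23 fragments of Cd244 behind each ratio. On log2(TPM + 1) differences, a two-sided exact permutation test by sign flips gave p = 0.25 for each pair that did not overlap, the smallest p that 3 libraries allow (0.292 adjusted over the 7 pairs), and p = 1 for Slamf6 and Cd84, so no pair can pass a threshold of 0.05.

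The place of Sh2d1a in this order depended on the length its count was divided by. Its merged exons span 5505 bases while its longest protein-coding transcript in GENCODE M21 has 1223. The ratio of these lengths was lower in 99.5% of protein-coding genes, whose median was 1.08. Divided by the longest protein-coding transcript of each gene, Sh2d1a reached 137, 105 and 109 TPM (117 ± 17.3 TPM) and lay above Ly9 in every library, at 97.4, 95.4 and 103 TPM. Divided by coding length alone it was the highest of the 8 genes, at 179 ± 25.5 TPM, against 96.1 ± 6.03 TPM for Cd48. Coding length also placed Slamf6 (52.8 ± 5.22 TPM) above Slamf1 (45.5 ± 2.59 TPM). Both then lay close to Ly9 (59.3 ± 2.76 TPM), and Cd84 was at 32.5 ± 1.51 TPM. The shares of receptor TPM given for Cd48 and Ly9 were computed with merged exon length only. Under all 3 lengths Cd48 was above Ly9, and Slamf7 and Cd244 were the lowest. The count was that over all merged exons under every length. Coding length, 378 bases for Sh2d1a, thus left fragments outside the coding sequence in the count. It therefore raises genes with much exon outside that sequence, and its levels are not measures of coding fragments alone.

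**Figure D2:**
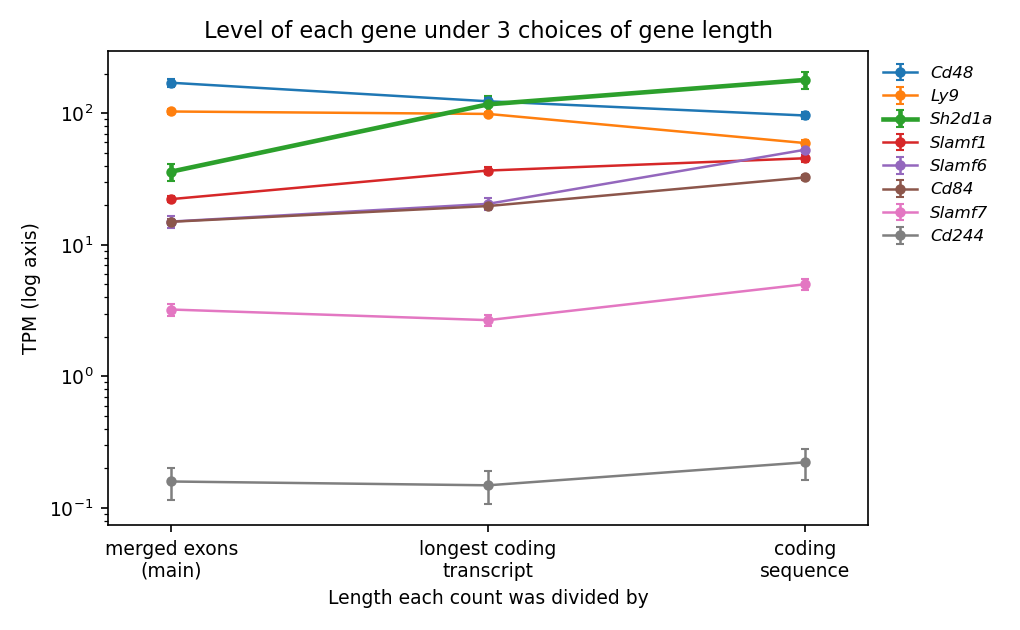
Mean TPM (log axis, error bars SD, n = 3) of the 8 genes with counts over all merged exons divided by merged exon length, by the longest protein-coding transcript and by the longest coding sequence. Sh2d1a, drawn with a thicker line, goes from 36.0 to 117 and 179 TPM, whereas Cd244 stays at 0.149 to 0.223 TPM.

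The balance of receptors and adaptor shows the same dependence. The 6 receptors with a tail summed to 159 ± 5.95 TPM, which was 3.83, 4.71 and 4.85 times the TPM of Sh2d1a in replicates 2, 3 and 4 (4.46 ± 0.552). With the longest protein-coding transcript the ratio was 1.55 and with coding length 1.10. The receptors exceeded the adaptor in every library under the first 2 choices, and under coding length the ratio ran from 0.978 to 1.18. The coding length ratio still includes fragments outside the coding sequence of each gene.

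The ligand and receptor pairs were unequal. Cd48 had 1 abundant partner, Cd2, the gene of a T cell adhesion receptor related to the family, at 375, 355 and 322 TPM. Cd2 was 2.06 ± 0.0183 times Cd48 in TPM, a ratio that varied little between libraries. The other partner, Cd244, was below 1 TPM in every library. With merged exon length the 5 self-binding receptors Slamf1, Slamf6, Slamf7, Ly9 and Cd84 summed to 158 ± 5.91 TPM, most of it Ly9. With coding length Ly9 stood much closer to Slamf6 and Slamf1, at 59.3 TPM against 52.8 and 45.5 TPM.

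Of 5 further genes, the related Cd2 and 4 genes of the SLAM family or EAT-2, only Cd2 was detected, at 351 ± 26.7 TPM, above all 8 members. The other 4 had few fragments or none. Slamf8, a receptor gene known from macrophages, was at 0 fragments throughout (3 would make at most 0.0798 TPM), and Slamf9 had 3, 6 and 2 fragments. Sh2d1b1 and Sh2d1b2, which encode the EAT-2 adaptors, were at 0 as well, where 3 fragments amount to 0.0966 and 0.0967 TPM. These are close copies of each other, and fragments that align to more than 1 place may not have been counted, so their 0 is uncertain. Of the adaptors measured, SAP was thus the one with counts.

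Genes of the machinery that SAP and the receptor tails engage were all expressed. Detected were all 18 of the partner list, beside 45.6% of all protein-coding genes. Of the 18 genes, 17 were at 10 TPM or more and 8 at 100 TPM or more, beside 34.8% and 8.80%. The list median was 78.2 TPM against 0.355 TPM over all protein-coding genes. The Src family kinase gene Lck was highest at 794, 864 and 831 TPM, followed by the phosphatase gene Ptpn6 (SHP-1) at 567, 637 and 606 TPM. Fyn, the kinase that SAP binds directly, stood at 214 ± 4.69 TPM, and Ptpn11 (SHP-2), which competes with SAP for the motifs, at 113 ± 1.46 TPM. The lowest were Inppl1 (SHIP-2) at 6.46 ± 0.885 TPM and the adaptor Nck1 at 17.2 ± 1.73 TPM, while Inpp5d (SHIP-1) was at 65.5 ± 3.78 TPM.

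Genes of the T cell states in which SAP is best known were split. Of 9 innate-like genes 4 were detected, near the 45.6% of all protein-coding genes that were. The highest were Il2rb (883 ± 32.4 TPM), an interleukin-2 receptor chain that regulatory T cells also carry, and Nkg7 (126 ± 8.83 TPM). Zbtb16, which encodes PLZF, the factor of natural killer T cells, had no fragment (3 would make at most 0.0465 TPM), and Klrb1c had 4 in all. Traj18, the joining segment of the invariant receptor, counted as detected on 3, 2 and 10 fragments. In the follicular helper list 6 of 9 genes were detected, beside the same 45.6%. Whether either count differs from that share was not tested. The highest of this list were the inhibitory receptor gene Pdcd1 (400.1 ± 25.3 TPM) and Cd40lg (220 ± 6.54 TPM). Ascl2 and Il21 were the lowest, at 0.101 ± 0.134 and 0.0360 ± 0.0322 TPM. List medians were 0.446 TPM for the innate-like list and 11.4 TPM for the follicular helper list, against 0.355 TPM over all protein-coding genes.

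**Figure D3:**
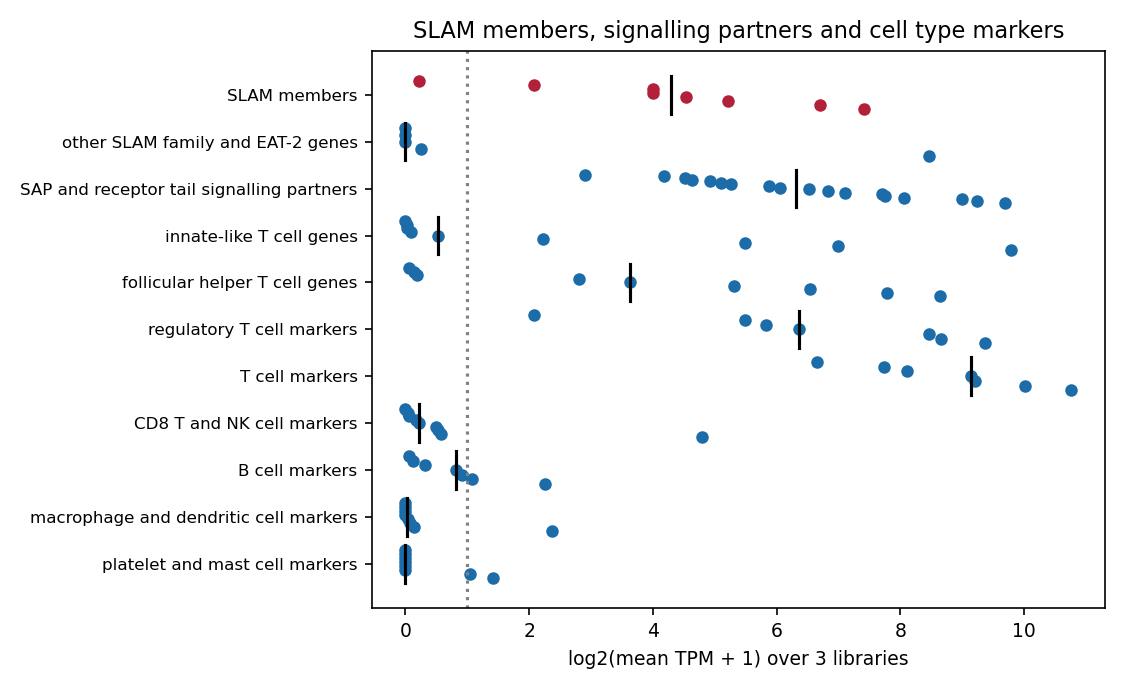
Level of each gene as log2(mean TPM + 1) over 3 libraries, 1 row per gene list; each point is 1 gene, the black bar is the list median and the dotted line is 1 TPM. All 18 partner genes lie to the right of the dotted line, as do 7 of 8 SLAM members, while lists of other cell types lie mostly to its left.

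Markers of other cells that carry SLAM receptors were low, with few exceptions. Of the 9 CD8 T and NK cell markers 8 stayed below 1 TPM in every library, with no fragment of Klrk1; the exception was Cd8b1 at 26.9 ± 2.6 TPM, beside Cd8a at 0.416 ± 0.0858 TPM. Of 7 B cell markers 5 stayed below 1 TPM, and the summed level of the list was 5.35, 9.42 and 6.01 TPM, of which Igkc made 2.31, 6.29 and 2.77 TPM. Of 8 macrophage and dendritic cell markers 7 stayed below 1 TPM, with no fragment of Csf1r, Lyz2, Xcr1 or C1qa and a summed level of 5.38, 4.56 and 3.08 TPM, most of it Cd68. Of 8 platelet and mast cell markers 6 had no fragment. The exceptions were Kit at 1.18, 1.83 and 2.00 TPM and Itga2b at 1.22, 0.742 and 1.22 TPM in replicates 2, 3 and 4. Summed over the list the CD8 T and NK cell markers made 29.8, 30.2 and 25.7 TPM, most of it Cd8b1. In every library the summed level of each of these 4 lists was below that of Ly9, at 99.7 to 108 TPM. The CD8 T and NK cell sum was above Slamf1, Slamf6, Cd84 and Slamf7 in every library, and the B cell sum was above Slamf7. What other cells added to the receptor levels was not tested.

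The 7 receptor genes lie together on chromosome 1, from 171559193 to 171953170, in the order Cd244, Ly9, Slamf7, Cd48, Slamf1, Cd84 and Slamf6. Level did not follow position: barely counted Cd244 is next to Ly9, and low Slamf7 lies between Ly9 and Cd48, the highest pair. Gm10521 was the only other protein-coding gene inside the cluster, at 1.55 ± 0.145 TPM. Within 500 kb on each side of the cluster, 23 of 41 other protein-coding genes (56.1%) reached 1 TPM in every library, against 6 of the 7 receptors. Among these neighbours were the prefoldin gene Pfdn2 (162 ± 4.27 TPM) and the coatomer gene Copa (149 ± 2.6 TPM), both between Ly9 and Cd48 in mean level.

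**Figure D4:**
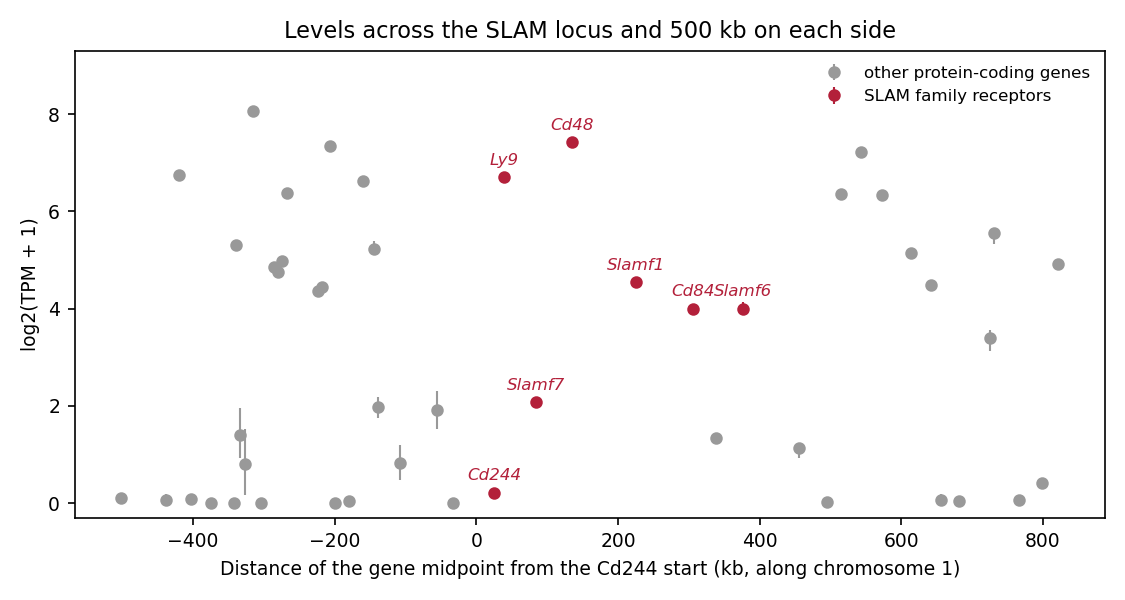
Level as log2(TPM + 1) against distance of the gene midpoint from the Cd244 start (kb) for protein-coding genes of the SLAM cluster (red) and its 500 kb flanks (grey); points are means and bars the range of 3 libraries. Cd48 and Ly9 stand high and Cd244 and Slamf7 low among adjacent receptor genes, and 23 of the 41 grey genes reach 1 TPM.

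Differences between the libraries were described for each member. A chi-square test of equal rates was run for each gene on fragment counts with TMM library sizes (edgeR), adjusted over 13688 genes (Benjamini-Hochberg); it compares these libraries and takes fragments as independent. CPM in these comparisons is the count scaled to the TMM library size. Calling a gene took an adjusted p under 0.05 and a CPM ratio, largest over smallest library, that reached 2. By this rule 0 of 8 members were called, where 11.0% of all genes were. The count was also 0 with DESeq2 size factors, and 6 members had an unadjusted p under 0.05. At the adjusted p alone 6 of 8 members passed, where 70.5% of all genes did; Slamf7 (0.278) and Cd244 (0.538) did not. Both counts are near these backgrounds and set the members apart in neither direction. With no filter on low counts Slamf1 (0.0534) and Cd84 (0.0578) missed the threshold too. The CPM ratio ran from 1.08 for Ly9 to 1.26 for Sh2d1a among the 6, and was 1.71 for the 43 fragments of Cd244.

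Several of the members that passed did so through 1 library. The largest difference was that of Sh2d1a, 1.26-fold, with a chi-square adjusted p of 3.2e-21 that became 0.449 without replicate 2 (ratio 1.02). Without replicate 4 the adjusted p was 0.719 for Cd48, 0.615 for Ly9 and 0.449 for Cd84, and without replicate 3 it was 0.79 for Slamf1. Cd84 also missed the threshold without replicate 2 (0.21). Slamf6 kept an adjusted p under 0.05 whichever library was left out, at most 0.0149.

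Replicate 2 was the highest library for 6 of the 7 detected members, all but Ly9, and also for Cd244, under TPM, library totals, TMM and DESeq2 size factors alike. Among detected protein-coding genes 42.2% were highest in replicate 2 by TPM, 40.6% by library totals, 35.7% by TMM and 37.5% by DESeq2 size factors. The log2 ratio of replicate 2 to the mean of the other libraries was 0.35 for Sh2d1a, 0.22 for Slamf6 and for Slamf7, 0.13 for Cd48, 0.12 for Cd84, 0.09 for Slamf1 and -0.03 for Ly9. Sh2d1a is X-linked, and replicate 2 is the library with the high Xist and the near-absent Y-linked counts. By that ratio the median of 220 X-linked protein-coding genes at 10 TPM was 0.09, with 71.8% above 0, against 0.01 and 51.9% for 7513 autosomal ones. At or above the value of Sh2d1a lay 7.73% of the X-linked and 1.49% of the autosomal genes. The part of the sex-linked difference in that of Sh2d1a was not tested.

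**Figure D5:**
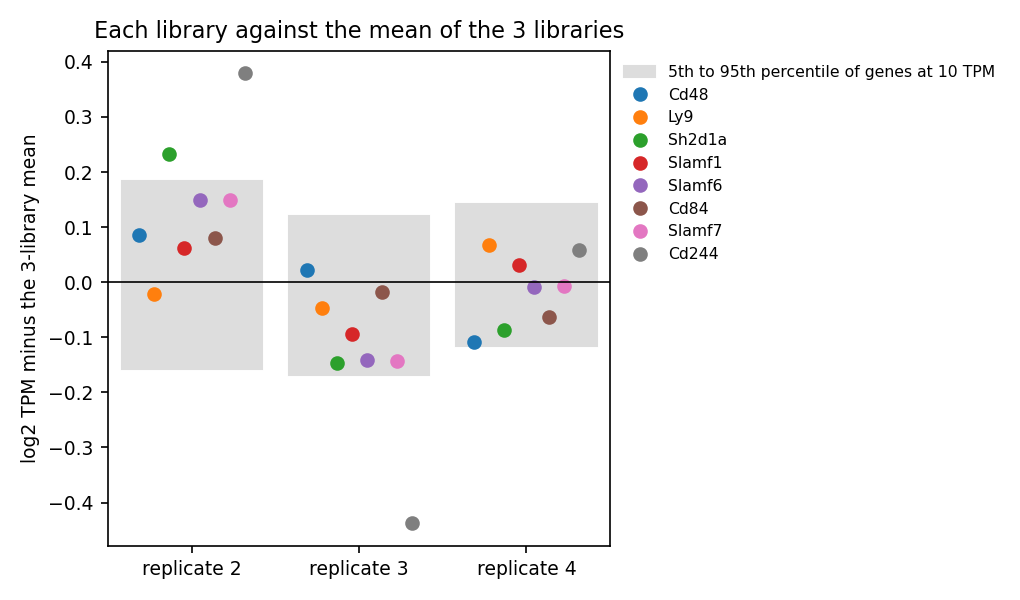
log2 TPM of each member in each library minus its mean over the 3 libraries; grey boxes span the 5th to 95th percentile of protein-coding genes with a mean of 10 TPM or more. Sh2d1a in replicate 2 (0.23) lies above the box, whose upper edge is 0.18; Cd244, from 43 fragments, lies outside it in replicates 2 and 3.

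The protein-coding genes most like 2 of the members across the 3 libraries were found by the smallest value of the largest absolute difference in log2(TPM + 1), over 3 libraries. For Cd48 these were Arl6ip5 (0.04), Pole4 (0.07) and Ciao2a (0.07). For Sh2d1a they were Smc6 (0.06), Lims1 (0.07) and Etaa1 (0.07), each of which was also highest in replicate 2, at 40.6, 43.6 and 42.7 TPM.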

How the data were processed

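RNA of 3 mouse regulatory T cell libraries (1 group) was analysed; the assay label names total RNA, while the linked protocol's name refers to polyadenylated RNA. The files deposited by the authors hold whole-number fragment counts and a merged exon length for each gene. Per the file headers, featureCounts 1.4.6-p4 counted pairs with both ends aligned over GENCODE M13 exons, with strand option 2. The build is mm10 per the labels, and aligner settings were not given. The header command has no option for multiply aligned or multiply assigned fragments.

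Symbols and biotypes came from GENCODE M21 by unversioned identifier (50376 of 50600 matched; all 8 members also had the same version). TPM was computed as count over merged exon length, scaled per library. Library differences were tested by chi-square, with 2 degrees of freedom, for genes with 30 or more fragments in all, on TMM effective sizes (edgeR 4.0.16, R 4.3.3), with a 0 replaced by 3 fragments in ratios. The code was run on counts simulated with sampling noise alone, apart from 200 genes made to differ. The real libraries differed by more than sampling noise, so that run gives no error rate for them. edgeR's quasi-likelihood test has nothing to compare in 1 group. Size factors of DESeq2 1.42.0 were an alternative. The hydropathy search skipped the first 60 codons. Floors of 3 fragments cover counting error only, since no molecular identifiers were used.

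Members and gene lists were chosen with earlier results of these data known. Named were all members, the 2 highest and 2 lowest genes of each partner and T cell state list, the 3 highest locus neighbours (1 is not reported here), and the 3 genes most like Cd48 and Sh2d1a; Fyn, Ptpn11, Inpp5d and the marker genes named were added after their values were seen. The regulatory T cell and T cell lists had medians of 80.9 and 562 TPM, the CD8 T and NK cell, B cell, macrophage and dendritic cell, and platelet and mast cell lists 0.162, 0.757, 0.0141 and 0 TPM.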

Additional observations from a re-analysis of the deposited data

How the results depend on the processing

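Detection of 7 of 8 members held at 0.5 TPM, without mitochondrial and ribosomal protein genes, without each replicate and with the length of the longest protein-coding transcript; at 5 TPM it was 6. Without mitochondrial and ribosomal protein genes all 8 mean levels were higher, by more than 1 SD for all but Cd244 (Cd48 199.5, Slamf1 26.1 and Sh2d1a 42.1 TPM). Pseudocount 0.1 moved the log2 difference from Slamf7 to Cd244 from 1.86 to 3.69 and that from Cd84 to Slamf7 from 1.92 to 2.18. Length reordered members. With the longest protein-coding transcript the log2 difference from Ly9 to Sh2d1a reversed to -0.23, and with coding length to -1.57, while that from Slamf1 to Slamf6 reversed to -0.21 with coding length; the ratio of tailed receptors to Sh2d1a moved from 4.46 to 1.55 and 1.10. Both lengths come from GENCODE M21 and were chosen after seeing the data, and the counts were not restricted to them. The planned coding length from RefSeq proteins was not run. Of 42 recomputed pair differences 28 moved by less than 1 SD, 11 moved by more and 3 reversed. Called genes between libraries numbered 1505, 2821 with no filter on low counts and 523 to 777 without 1 replicate (2 libraries compared), where fewer libraries enter each test; 0 members were called under any of these settings, or at a ratio of 1.5, and members at the adjusted p alone numbered 3 to 5 without 1 replicate and 4 with no filter on low counts, instead of 6.

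All 7 regulatory T cell markers were detected, and 6 at 5 TPM. Of the B cell markers 1 was detected, 4 at 0.5 TPM, 0 at 5 TPM and 1 to 2 without 1 replicate. Of the macrophage and dendritic cell markers 1 was detected and 0 at 5 TPM. Of the platelet and mast cell markers 1 was detected, 2 at 0.5 TPM, 0 at 5 TPM and 1 to 2 without 1 replicate. The sex-linked list went from 0 to between 0 and 4 without 1 replicate. Within 200 kb of the receptor cluster 62.5% of 16 neighbours were detected, against 56.1% of 41. No paired comparison of conditions was possible because the libraries form 1 group. Depth limits Cd244, whose 8 to 23 fragments leave its variation between libraries not detectable, and gene counts leave isoforms with and without switch motifs unresolved.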
